A study of Mus musculus with 30 samples.

Results

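The genes described here are 6 of the MHC class II antigen presentation pathway in the mouse: the chains H2-Aa, H2-Ab1 and H2-Eb1, the peptide-loading subunit H2-DMa, the invariant chain Cd74 and the transactivator Ciita. They were chosen by name for their place in the pathway, and all 6 were measured among the 17782 genes tested. A probe set is the group of short oligonucleotides that measures 1 transcript on the array, and 10 of the 31563 probe sets annotated to a single symbol belonged to these genes. Kidney and muscle of the same 15 mice gave 30 Affymetrix Mouse Genome 430 2.0 arrays, and the design text sets the series up to look at blockade of activin A in mice with a kidney mutation.

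In each tissue, 4 arrays came from Kif3aΔTub mice given sActRIIB-Fc and 4 from Kif3aΔTub mice given PBS. A further 4 came from WT mice given sActRIIB-Fc and 3 from WT mice given PBS. The mutants carry the genotype label Kif3aKSPCre. Kif3a encodes a motor subunit needed to build cilia, and KSP-Cre uses the promoter of a cadherin of kidney tubule epithelium, so muscle is not a target of the deletion. sActRIIB-Fc, called the trap below, is a soluble form of the activin type IIB receptor that binds activin A and related ligands. All mice were 6 weeks old. The protocol label gives 10 mg/kg of trap, injected into the abdomen weekly, 2 times, and stands on PBS samples too. Strain, sex and the name of the muscle are not given in the sources used here.

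MHC class II molecules are pairs of an alpha and a beta chain that hold peptides from outside proteins on the surface of antigen-presenting cells, where CD4+ T cells read them. The invariant chain Cd74 guides new class II molecules to endosomes, and H2-DM exchanges the remnant of Cd74 for a peptide. Ciita binds no DNA itself but joins the factors already sitting on class II promoters and switches them on, both in professional antigen-presenting cells such as dendritic cells, B cells and macrophages and, after interferon gamma, in other cells.

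On RefSeq's GRCm38.p6, 4 of the genes lie within the major histocompatibility complex on chromosome 17: H2-DMa at chr17:34119693-34139101, H2-Ab1 at chr17:34263227-34269418, H2-Aa at chr17:34282744-34287823 and H2-Eb1 at chr17:34305867-34316674. Class II promoters are known for an X box followed by a Y box, so 2 strings of letters were looked for on both strands of RefSeq's windows from 250 bases before to 50 after each start: AGNAAC, a core of the X box, and ATTGG, the core of the Y box. AGNAAC was in 48.1% and ATTGG in 37.4% of 32851 such windows. AGNAAC with ATTGG 15 to 40 bases after it was in 1.36%, among them the windows of H2-Eb1 and of the related class II genes H2-Oa, H2-Ob and H2-Eb2. The H2-Aa window held GCAAC in that place, letters that share their end with AGNAAC. The pair of GCAAC and ATTGG, searched for after this was seen, stood at the same spacing in 1.22% of all windows and in the windows of all 5 of these genes. Neither window of H2-DMa held either pair. The sequences of 2 of the genes described here and of 2 relatives are shown because they carry the same letters while the genes differed in the arrays, as given below. They run 5′ to 3′ on the gene's strand from RefSeq GRCm38.p6, and capitals mark GCAAC and ATTGG.
H2-Aa (chr17:34287847-34287944, - strand): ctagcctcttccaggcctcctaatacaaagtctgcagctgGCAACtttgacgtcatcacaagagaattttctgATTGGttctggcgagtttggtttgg
H2-Eb1 (chr17:34305736-34305832, + strand): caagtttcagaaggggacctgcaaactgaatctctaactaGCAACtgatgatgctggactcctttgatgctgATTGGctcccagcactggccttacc
H2-Oa (chr17:34092263-34092360, + strand): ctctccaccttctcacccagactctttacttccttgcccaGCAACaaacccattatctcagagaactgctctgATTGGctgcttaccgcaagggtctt
H2-Eb2 (chr17:34325503-34325599, + strand): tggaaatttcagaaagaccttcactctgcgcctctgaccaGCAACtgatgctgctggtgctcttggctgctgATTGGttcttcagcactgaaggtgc

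In H2-Aa 33 bases lay between the start of GCAAC and the start of ATTGG, in H2-Eb1 32, in H2-Oa 33 and in H2-Eb2 32.

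Values are the authors' log2 signals, and differences are log2 fold changes fitted with limma in each tissue, with p-values adjusted by Benjamini-Hochberg over 17782 genes. A gene was called at an adjusted p under 0.05, and each gene is given by the brightest of its probe sets in the tissue, except in the model over both tissues. Arrays of the same group correlated at 0.976 to 0.996 across probe sets. Markers of the other tissue gave a floor: muscle fibre markers read 3.29 to 5.53 (median 4.46) in kidney, and kidney markers 3.59 to 6.76 (median 4.86) in muscle. Muscle fibre markers read 13.49 to 14.31 in muscle and kidney markers 9.91 to 13.41 in kidney, as the tissue labels say. Kif3a averaged 7.33 in kidneys of Kif3aΔTub mice given PBS and 7.83 in kidneys of WT mice given PBS (-0.50 ± 0.15 SE, limma adjusted p = 0.011). Under the trap it averaged 7.63 in Kif3aΔTub kidneys and 7.65 in WT kidneys (-0.02 ± 0.14 SE, limma adjusted p = 0.905), so on the trap arrays it gave no check of the genotype labels. Whether these probes read the deleted exons was not analysed here.

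In kidney, all 6 genes were higher in Kif3aΔTub than in WT mice given PBS. The chains and Cd74 were 6.09 to 6.74 times higher, H2-DMa 3.67 times and Ciita 2.14 times. Of all genes, 24.9% were called higher in this comparison and 51.6% in either direction, and the median change of the 6 was 2.64 against -0.08 over all genes. In whole tissue, fewer or more cells of a type and less or more RNA per cell cannot be told apart.

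The alpha chain gene H2-Aa read 12.33, 12.28, 12.84 and 12.62 in kidneys of Kif3aΔTub mice given PBS and 10.07, 9.74 and 9.92 in kidneys of WT mice given PBS. Each mutant array lay above every WT array, with a gap far wider than the spread in either group. The difference was 2.61 ± 0.24 (SE, limma adjusted p = 4.34e-07).

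Its partner, the beta chain gene H2-Ab1, read 10.87, 11.15, 11.54 and 11.30 in Kif3aΔTub kidneys and 8.63, 8.38 and 8.49 in WT kidneys under PBS. H2-Eb1, the beta chain of the other classical class II molecule, read 11.21, 11.15, 11.87 and 11.58 in Kif3aΔTub kidneys and 8.90, 8.65 and 8.79 in WT kidneys. In both genes the third mutant array was the highest and the groups stayed apart. The differences were 2.72 ± 0.25 for H2-Ab1 and 2.67 ± 0.28 for H2-Eb1 (SE, limma adjusted p = 3.28e-07 and 1.48e-06).

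H2-DMa, a subunit of the peptide exchange factor, read 7.16, 7.68, 8.17 and 7.87 in Kif3aΔTub kidneys and 5.88, 5.90 and 5.75 in WT kidneys under PBS. The lowest mutant array still lay more than a log2 unit above the highest WT array. The difference was 1.88 ± 0.23 (SE, limma adjusted p = 6.46e-06).

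Cd74 is encoded outside the complex, at chr18:60803849-60812652 of GRCm38.p6. It read 11.58, 11.56, 12.04 and 11.68 in Kif3aΔTub kidneys and 9.13, 8.84 and 8.92 in WT kidneys under PBS. The groups were again apart, with the third mutant array highest, and the difference was 2.75 ± 0.20 (SE, limma adjusted p = 3.58e-08).

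Ciita lies at chr16:10480014-10531064 of GRCm38.p6, and its product drives the other genes. It read 4.62, 5.11, 6.17 and 5.26 in Kif3aΔTub kidneys and 4.26, 4.30 and 4.02 in WT kidneys under PBS. The groups did not overlap, but the mutant arrays were widely spread, and all of them except the third lay within the range of muscle markers in kidney. The difference was 1.09 ± 0.25 (SE, limma adjusted p = 0.00175), and 0.80 without the third mutant array (limma adjusted p = 0.00103). Over all genes, 27.7% had higher mutant arrays without overlap, as all 6 of these genes did.

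**Figure D1:**
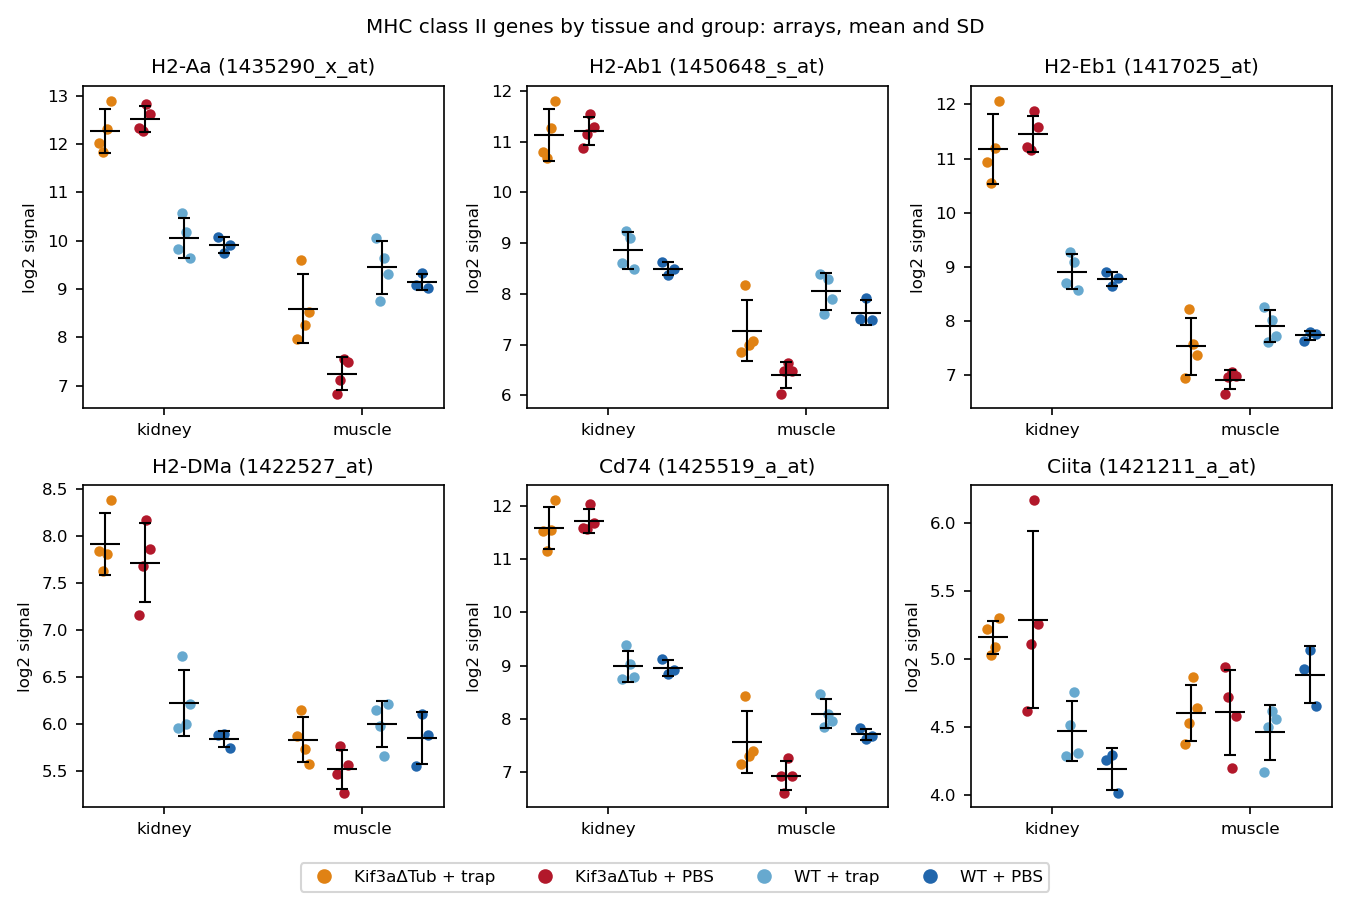
Log2 signal of each array for the 6 MHC class II genes, by tissue and group (points), with the group mean and SD (bars), 3 or 4 arrays a group; each gene is shown by the probe set that is brightest over all 30 arrays, which for Ciita in muscle is not the one tested there. In kidney both Kif3aΔTub groups lie above both WT groups for the first 5 genes, while in muscle the Kif3aΔTub mice given PBS are lowest for H2-Aa, H2-Ab1, H2-Eb1 and Cd74.

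The same 6 genes were called higher in Kif3aΔTub kidneys when both genotypes received the trap, where 22.2% of all genes were called higher. H2-Aa read 12.02, 11.84, 12.32 and 12.90 in Kif3aΔTub kidneys under the trap, against 9.83, 10.57, 10.19 and 9.64 in WT kidneys under the trap. Cd74 read 11.53, 11.16, 11.55 and 12.12 in Kif3aΔTub kidneys and 8.75, 9.39, 9.03 and 8.79 in WT kidneys. In both genes trap-treated mutant number 4 was the highest array of its group, and mutant and WT arrays did not overlap, as in all 6 genes and in 18.6% of all genes with higher mutant arrays. The differences were 2.21 ± 0.23 for H2-Aa, 2.28 ± 0.23 for H2-Ab1, 2.27 ± 0.26 for H2-Eb1, 1.69 ± 0.21 for H2-DMa and 2.60 ± 0.18 for Cd74 (SE, limma adjusted p of at most 1.22e-05).

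Ciita differed least under the trap. It read 5.22, 5.03, 5.09 and 5.30 in Kif3aΔTub kidneys and 4.29, 4.52, 4.76 and 4.31 in WT kidneys. The trap-treated mutants were close together and above every trap-treated WT array. The difference was 0.69 ± 0.23 (SE, limma adjusted p = 0.0227), a call lost without the WT array number 1 or 4 or mutant array number 4 (0.63, 0.64 and 0.64, limma adjusted p = 0.0588, 0.0538 and 0.0581). It was also lost with array weights (0.61) and with the 18S signal as a covariate (0.51, limma adjusted p = 0.0601 and 0.137), where 18S was 12.0 to 12.7 in Kif3aΔTub kidneys and 12.43 to 12.8 in WT kidneys under the trap.

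Within the Kif3aΔTub kidney, trap and PBS arrays overlapped for all 6 genes, and none was called, where 2.4% of all genes were. The changes ran from -0.27 to 0.20. Their 95% intervals reached from -0.73 to 0.23 for H2-Aa, from -0.52 to 0.27 for Cd74 and from -0.62 to 0.36 for Ciita, so shifts of that size in either direction could not be told from none. The 18S signal did not overlap between treatments, at 12.0 to 12.7 under the trap and 12.86 to 13.43 under PBS in Kif3aΔTub kidneys, and at 12.43 to 12.8 under the trap and 12.97 to 13.06 under PBS in WT kidneys. With 18S as a covariate 0 of the 6 were called by limma in either genotype, and the changes in Kif3aΔTub kidneys were lower with wider errors, from -0.89 ± 0.41 for H2-Eb1 to -0.31 ± 0.34 for H2-DMa (SE). In WT kidneys the trap changed none of the 6 by the test, with 0.877% of all genes called. H2-DMa read 5.96, 6.73, 6.00 and 6.22 in WT kidneys under the trap and 5.88, 5.90 and 5.75 under PBS, which did not overlap, but its change of 0.38 ± 0.23 did not pass the test (limma adjusted p = 0.514). No-overlap with higher trap arrays was seen in 6.74% of all genes there. The interaction of genotype and trap, that is, the difference between the trap's changes in mutant and in WT kidneys, ran from -0.44 to -0.15 and was called for 0 of the 6 genes and for 1.38% of all.

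Trap-treated Kif3aΔTub kidneys also stayed above kidneys of WT mice given PBS, the control arrays already used above. The differences were 2.36 for H2-Aa, 2.64 for H2-Ab1, 2.40 for H2-Eb1, 2.07 for H2-DMa, 2.63 for Cd74 and 0.96 for Ciita. All 6 were called by limma, where 22.1% of all genes were called higher. With the 18S signal as a covariate Ciita was not (0.59, limma adjusted p = 0.285), while the other 5 still were, at 1.62 for H2-DMa to 2.35 for H2-Ab1. The 18S signal was 12.0 to 12.7 in these Kif3aΔTub kidneys and 12.97 to 13.06 in kidneys of WT mice given PBS, without overlap. The less bright probe sets of Ciita differed by 0.36 and 0.07 in this comparison, and neither was called (limma adjusted p = 0.077 and 0.62 over 31563 probe sets).

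In muscle the class II chains and Cd74 went the other way. H2-Aa was 3.73 times lower, H2-Ab1 2.34 times lower, H2-Eb1 1.77 times lower and Cd74 1.71 times lower in Kif3aΔTub than in WT mice given PBS. H2-DMa and Ciita did not pass the test. Of all genes, 9.04% were called lower and 16% in either direction, and the median change of the 6 was -0.80 against -0.05 over all genes.

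H2-Aa read 6.83, 7.12, 7.56 and 7.48 in muscle of Kif3aΔTub mice given PBS and 9.08, 9.34 and 9.02 in muscle of WT mice given PBS. The mutant arrays were all lower than the lowest WT array by more than a log2 unit. The difference was -1.90 ± 0.33 (SE, limma adjusted p = 0.00128), and it was called under all 26 alternative settings.

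H2-Ab1 read 6.03, 6.48, 6.63 and 6.47 in Kif3aΔTub muscle and 7.50, 7.91 and 7.48 in WT muscle under PBS. H2-Eb1 read 6.66, 6.97, 7.06 and 6.99 in Kif3aΔTub muscle and 7.64, 7.80 and 7.77 in WT muscle. Neither gene's groups overlapped, and in both the first mutant array was lowest. The differences were -1.23 ± 0.27 for H2-Ab1 and -0.82 ± 0.22 for H2-Eb1 (SE, limma adjusted p = 0.00593 and 0.0204).

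Cd74 read 6.92, 6.61, 7.27 and 6.93 in Kif3aΔTub muscle and 7.83, 7.62 and 7.67 in WT muscle under PBS, without overlap. The difference was -0.78 ± 0.24 (SE, limma adjusted p = 0.0414), and the call was lost under 11 of 26 alternative settings. Over all genes, 13.5% had lower mutant arrays without overlap, as 4 of these 6 genes did.

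H2-DMa read 5.47, 5.77, 5.27 and 5.57 in Kif3aΔTub muscle and 5.56, 6.11 and 5.88 in WT muscle under PBS. Ciita, by the probe set brightest in muscle, read 4.30, 4.69, 4.65 and 4.71 in Kif3aΔTub muscle and 4.72, 4.88 and 4.36 in WT muscle. The groups overlapped for both genes, and both lay within the range of kidney markers in muscle, as did the Kif3aΔTub arrays of H2-Ab1 and the lowest ones of H2-Eb1 and Cd74. Probe sets differ in brightness, so that range is a rough guide to the floor. The differences were -0.33 ± 0.17 for H2-DMa and -0.07 ± 0.16 for Ciita (SE, limma adjusted p = 0.215 and 0.836), with a 95% interval of -0.40 to 0.27 for Ciita.

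The 4 calls came down to 2, H2-Aa and H2-Ab1, when the first mutant array, the second WT array or the third WT array was left out. RNA quality controls differed between genotypes in muscle under PBS, 18S with overlapping arrays and actin without overlap. The 3′ minus 5′ actin signal did not overlap in kidney under PBS either, at 0.76 to 1.37 in Kif3aΔTub and 1.40 to 1.5 in WT kidneys. The 18S control signal was 12.50 to 13.13 in Kif3aΔTub muscle and 13.11 to 13.28 in WT muscle under PBS, and the 3′ minus 5′ signal of the actin controls was -0.06 to 0.14 in Kif3aΔTub muscle and 0.16 to 0.18 in WT muscle. With either as a covariate, H2-Aa was the 1 gene still called, at -1.39 with the actin signal and -1.95 with 18S (limma adjusted p = 0.00764 and 0.0253). With 18S the differences that lost the call stayed nearly as large, with wider errors: -1.13 ± 0.37 for H2-Ab1, -0.79 ± 0.31 for H2-Eb1 and -0.71 ± 0.34 for Cd74 (SE). With the actin signal they were -0.87 ± 0.25, -0.57 ± 0.23 and -0.59 ± 0.27 (SE) for the same genes. The part of RNA quality in the result was not tested beyond these fits.

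In muscle of Kif3aΔTub mice, H2-Aa and H2-Ab1 were higher under the trap than under PBS, by 2.54 and 1.83 times. Of all genes, 4.18% were called higher and 6.33% in either direction. The PBS-treated mutants are the same arrays as in the comparison of genotypes, so the genotype difference and the trap difference share them.

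H2-Aa read 7.97, 9.60, 8.26 and 8.53 in muscle of Kif3aΔTub mice under the trap, against 6.83, 7.12, 7.56 and 7.48 under PBS. H2-Ab1 read 6.86, 8.17, 7.0 and 7.07 under the trap and 6.03, 6.48, 6.63 and 6.47 under PBS. In both genes the trap arrays all lay above the PBS arrays, as in 6.79% of all genes, and the second trap-treated mutant stood well above the other 3. The changes were 1.34 ± 0.31 for H2-Aa and 0.87 ± 0.25 for H2-Ab1 (SE, limma adjusted p = 0.018 and 0.0493).

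H2-Eb1 changed by 0.61 and Cd74 by 0.64, which did not pass the test (limma adjusted p = 0.0921 and 0.108), H2-DMa by 0.31 and Ciita by 0.18. H2-Eb1 read 6.96, 8.23, 7.57 and 7.37 in Kif3aΔTub muscle under the trap and 6.66, 6.97, 7.06 and 6.99 under PBS. Cd74 read 7.15, 8.42, 7.30 and 7.39 under the trap and 6.92, 6.61, 7.27 and 6.93 under PBS. Both overlapped at their lower end, and again the second trap-treated mutant was the highest array.

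The count of 2 became 0 without the first PBS-treated mutant, 3 (with H2-Eb1) without the first trap-treated mutant and 1 (H2-Aa) without the second. Leaving out any other array of the mutants, except the second given PBS, or any WT array except the second given the trap, took H2-Ab1 past the threshold and left 1. The 18S signal was 13.05 to 13.40 in Kif3aΔTub muscle under the trap against 12.50 to 13.13 under PBS, and with 18S or the actin signal as a covariate 0 of the 6 were called. With 18S the changes stayed about as large with wider errors, at 1.39 ± 0.45 for H2-Aa and 0.77 ± 0.37 for H2-Ab1 (SE), and with the actin signal they were 0.90 ± 0.26 and 0.56 ± 0.23 (SE).

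Between genotypes under the trap, 0 of the 6 genes were called in muscle, where 1.66% of all genes were called in either direction. H2-Aa averaged 8.59 ± 0.71 in Kif3aΔTub muscle and 9.45 ± 0.55 in WT muscle under the trap (SD, n = 4 each), with overlapping arrays. The differences were -0.85 ± 0.31 for H2-Aa and -0.77 ± 0.25 for H2-Ab1 (SE, limma adjusted p = 0.211 and 0.155), with 95% intervals from -1.51 to -0.20 and from -1.30 to -0.24. Without the second trap-treated mutant 3 genes were called, H2-Aa at -1.19, H2-Ab1 at -1.07 and Cd74 at -0.81 (limma adjusted p = 0.0258, 0.0101 and 0.0182).

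In WT muscle the trap gave no call among the 6 genes, with 0.0619% of all genes called, although Cd74 read 8.47, 7.84, 8.10 and 7.96 under the trap and 7.83, 7.62 and 7.67 under PBS, without overlap, as 7.06% of all genes did. Its change of 0.39 ± 0.24 did not pass the test (limma adjusted p = 0.553). The interaction in muscle was largest for H2-Aa at 1.04 ± 0.45 (SE, limma adjusted p = 0.309) and was called for 0 of the 6 genes and 0.169% of all, so a different effect of the trap in mutants and in WT mice was not shown. Trap-treated Kif3aΔTub muscle set against muscle of WT mice given PBS had 0 of 6 calls, where 0.973% of all genes were called. The difference for H2-Aa there was -0.55, with a 95% interval from -1.26 to 0.15.

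**Figure D2:**
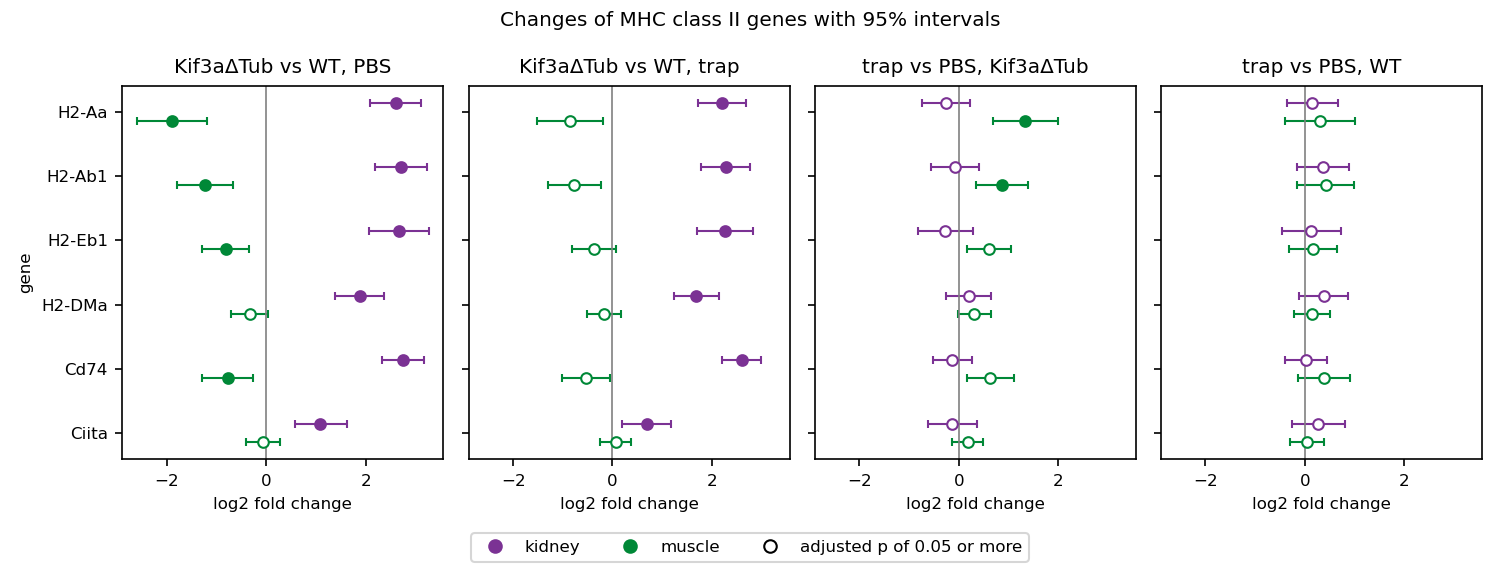
Log2 fold changes of the 6 MHC class II genes (points) with 95% intervals (bars) in 4 comparisons, in kidney and in muscle; filled points have a limma adjusted p under 0.05. Kidney points lie at 0.69 to 2.75 in both comparisons of genotypes, while in muscle H2-Aa lies at -1.90 under PBS and at 1.34 for the trap in Kif3aΔTub mice.

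The genotype difference itself differed between the tissues. In 1 model over both tissues, with the animal as a random block and each gene by the probe set brightest over all 30 arrays (for Ciita the one brightest in kidney, which differed by -0.28 between genotypes in muscle under PBS), the genotype difference under PBS in kidney minus that in muscle was 4.50 ± 0.43 for H2-Aa, 3.95 ± 0.38 for H2-Ab1, 3.49 ± 0.37 for H2-Eb1, 3.53 ± 0.32 for Cd74, 2.21 ± 0.29 for H2-DMa and 1.37 ± 0.31 for Ciita (SE). All 6 were called by limma (adjusted p of at most 0.000723), against 19.7% of all genes called in this direction. Without the third PBS-treated mutant, the Ciita probe set brightest over the arrays left was the one brightest in muscle. That probe set gave 0.53 (limma adjusted p = 0.0815). The part of the animal and that of the probe set in this lower value were not separated.

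The change with the trap in Kif3aΔTub mice, kidney minus muscle, was -1.59 ± 0.39 for H2-Aa (SE, limma adjusted p = 0.0162), the 1 gene called of the 6, against 3.5% of all genes called in this direction. It was not called without the first PBS-treated or the second trap-treated mutant (-1.51 and -1.11, limma adjusted p = 0.0562 and 0.083). Without trap-treated mutant number 4 3 were called, with H2-Ab1 at -1.24 and H2-Eb1 at -1.23 beside H2-Aa.

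Ordered by mean over the 8 tissue and treatment groups, H2-Aa was highest in kidneys of Kif3aΔTub mice given PBS (12.52 ± 0.26) and of those given the trap (12.27 ± 0.47), which overlapped. Next came WT kidneys under the trap (10.06 ± 0.42) and PBS (9.91 ± 0.17), and then WT muscle under the trap (9.45 ± 0.55) and PBS (9.15 ± 0.17), with each neighbour overlapping the next. Kif3aΔTub muscle under the trap (8.59 ± 0.71) overlapped WT muscle, and Kif3aΔTub muscle under PBS (7.25 ± 0.34, SD) lay apart at the bottom. H2-Ab1 had the same order of groups and the same gaps.

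H2-Eb1 kept that order too, but WT kidneys given PBS (8.78 ± 0.13) lay apart from WT muscle under the trap (7.91 ± 0.30, SD). Cd74 also had the order and that gap, with a further gap between WT muscle under the trap (8.09 ± 0.27) and under PBS (7.71 ± 0.11, SD). In both H2-Eb1 and Cd74, Kif3aΔTub muscle under PBS was lowest but overlapped Kif3aΔTub muscle under the trap. H2-DMa had 1 gap only, between the Kif3aΔTub kidneys and all other groups, whose means ran from 5.52 to 6.23. In Ciita no neighbour in the order stood apart, from 5.29 ± 0.65 in Kif3aΔTub kidneys under PBS down to 4.19 ± 0.15 in WT kidneys under PBS (SD).

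Where a gene had several probe sets, they mostly gave the same picture. The less bright H2-Aa probe set differed by 2.58 in kidney and -1.44 in muscle between Kif3aΔTub and WT mice under PBS (limma adjusted p = 9.6e-07 and 0.00465 over 31563 probe sets). The less bright H2-Ab1 probe set differed by 2.68 and -1.06 (limma adjusted p = 4.35e-06 and 0.0227). For the trap in Kif3aΔTub muscle these 2 probe sets gave 0.91 and 0.77 and were not called (limma adjusted p = 0.0656 and 0.104). Most of these probe sets carry suffixes that mark possible matches to related or alternative transcripts, so signal from relatives could not be separated.

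The 3 Ciita probe sets disagreed in size. In kidney under PBS, the probe set brightest in kidney differed by 1.09, the one brightest in muscle by 0.56 and the remaining one by 0.12 (limma adjusted p = 0.00177, 0.00837 and 0.329), and the mean over the probe sets gave 0.59. Of the 10 probe sets, 9 were called in kidney under PBS, where 49.3% of all probe sets were, and 6 in muscle under PBS, where 15.4% were.

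**Figure D3:**
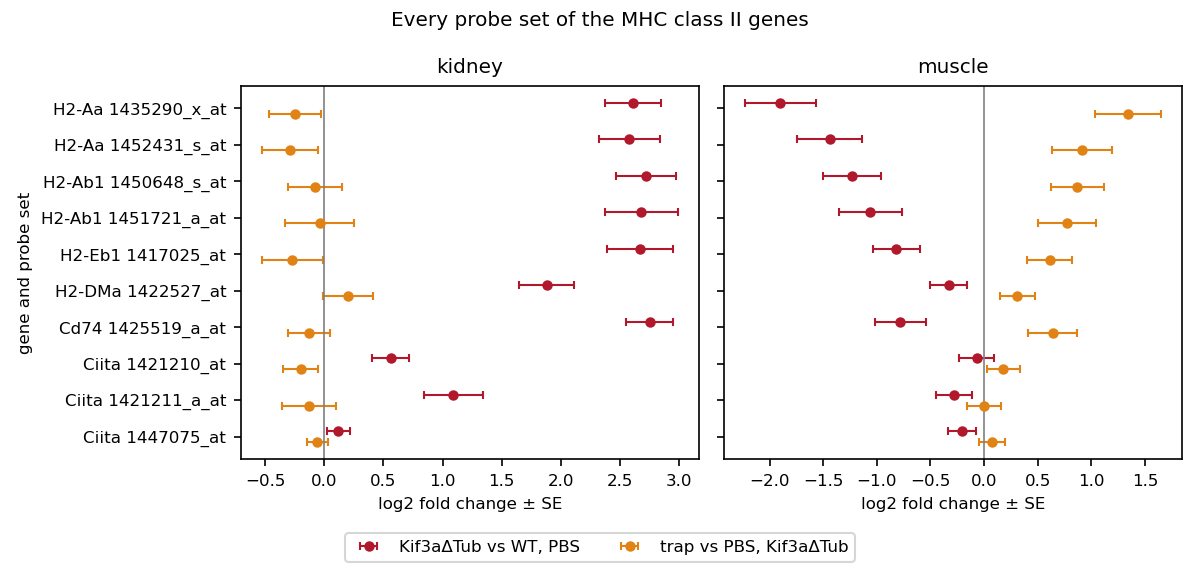
Log2 fold change ± SE for each of the 10 probe sets of the 6 genes, for Kif3aΔTub against WT under PBS and for trap against PBS in Kif3aΔTub mice, in kidney and in muscle. Both probe sets of H2-Aa and both of H2-Ab1 lie at 2.58 to 2.72 in kidney and at -1.06 to -1.90 in muscle for the genotype, and the 3 Ciita probe sets spread from 0.12 to 1.09 in kidney.

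Within groups, the genes varied together. Over the 15 kidney arrays, as deviations from group means, each of H2-Aa, H2-Ab1, H2-Eb1 and Cd74 correlated at 0.93 to 0.94 with the mean of the other 5, H2-DMa at 0.81 and Ciita at 0.60. In muscle the values were 0.81 to 0.96 for those 4 genes, 0.82 for Ciita and 0.30 for H2-DMa. Outside the 6, the genes most like their mean were Vstm4 (0.90), Pdlim2 (0.89), Fzd1, Ccn4 (both 0.88) and Wfdc17 (0.87) in kidney. In muscle they were Mgst1 (0.91), Adig (0.89), Gm2a (0.87), Tspo and Tmem120b (both 0.85). These are descriptions over 15 arrays that share their array's overall signal.

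No relation between kidney and muscle of the same animal was detected within groups. Over 15 animals, the deviations of the mean of the 6 genes in kidney and muscle gave r = -0.31 and rho = -0.21 (permutation p = 0.252 and 0.427, 1 relation computed). Without the 2 animals farthest from the median kidney value, r was -0.43 and rho -0.29 (permutation p = 0.133 and 0.329). The second trap-treated mutant, highest in muscle at 7.62, was the lowest of its group in kidney at 9.48.

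**Figure D4:**
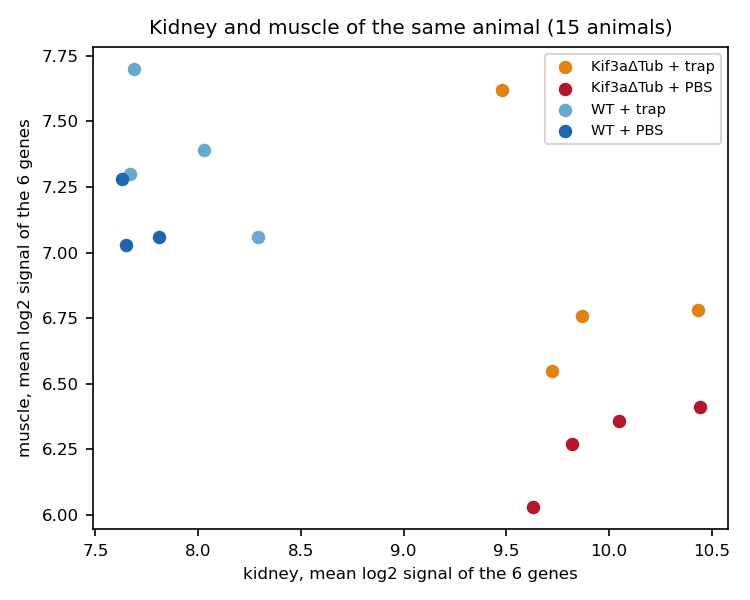
Mean log2 signal of the 6 genes in kidney (x axis) and muscle (y axis) for each of the 15 animals, coloured by group. All 8 Kif3aΔTub animals lie at 9.48 or more in kidney, to the right of all 7 WT animals, and 1 trap-treated Kif3aΔTub animal reaches 7.62 in muscle.

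Of 10 other genes measured, 3 were called higher and 2 lower in Kif3aΔTub kidneys under PBS, with a median change of 0.04. Both shares are near those of all genes in this comparison, 24.9% higher and 26.7% lower. Ctss, the protease that trims Cd74, read 11.83 in Kif3aΔTub kidneys and 7.77 in WT kidneys, a change of 4.06 ± 0.16 (SE, limma adjusted p = 3.15e-10). Marchf1, a ubiquitin ligase that removes class II from the surface, rose by 0.95 and H2-DMb2, the beta subunit of the exchange factor, by 0.55. H2-Eb2 fell by 0.45 and was called (limma adjusted p = 0.00592). It read 5.63 in Kif3aΔTub kidneys and 6.08 in WT kidneys, just above the range of muscle markers there (3.29 to 5.53). H2-Oa, a subunit of an inhibitor of the exchange factor, changed by 0.07 and H2-Ob by 0.01, neither called, with H2-Oa within the range of muscle markers in kidney and H2-Ob at or below its lower end. Of the 4 genes whose promoter letters are printed above, H2-Aa and H2-Eb1 were thus called higher, H2-Eb2 was called lower and H2-Oa was not called. In muscle 0 of the 10 were called by limma between genotypes under PBS, and Ctss differed by -0.14 ± 0.43 (SE, limma adjusted p = 0.869).

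Of 15 activators of Ciita and class II promoter factors, 7 were called higher and 1 lower in Kif3aΔTub kidneys under PBS, with a median of 0.30. The interferon gamma receptor chains Ifngr2 and Ifngr1 rose by 1.5 and 1.32, the myeloid factor Spi1 by 1.21 and the interferon-induced factor Irf1 by 1.06. Ifng itself read 2.77 in Kif3aΔTub kidneys and 2.84 in WT kidneys, below the range of muscle markers there. In muscle Ifngr2 fell by 1.02 between genotypes and rose by 0.84 with the trap in Kif3aΔTub mice (limma adjusted p = 0.00105 and 0.0075), and Nfyb, a subunit of the Y box factor, rose by 0.54 between genotypes. Of 14 MHC class I presentation genes, 10 were called higher in Kif3aΔTub kidneys under PBS, against 24.9% of all genes. In muscle 1 was (Canx, a chaperone, at 0.46), where 16% of all genes were called in either direction. Psmb8, an immunoproteasome subunit, rose by 1.69 in kidney, the peptide-loading chaperone Tapbp by 1.56, the immunoproteasome subunit Psmb10 by 1.35 and the class I heavy chain H2-K1 by 1.32. With the trap, 1 of the 14 rose in Kif3aΔTub kidneys, the class I transactivator Nlrc5, by 0.97, where 2.4% of all genes were called, and 0 in Kif3aΔTub muscle.

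Markers of cells that can carry class II were read against the shares over all genes in Kif3aΔTub kidneys under PBS, 24.9% called higher and 26.7% called lower. Of 15 macrophage markers, 12 were called higher and 0 lower in Kif3aΔTub kidneys under PBS, with a median of 2.95, among them the scavenger receptor Cd163 (4.31), the lysozyme Lyz2 (4.2) and the complement genes C1qb (4.09) and C1qc (4.04). Their summed level was 13.79 to 14.30 in Kif3aΔTub kidneys and 11.04 to 11.14 in WT kidneys under PBS. Of 13 dendritic cell markers, 4 were higher, a share near that of all genes: Cd24a, which tubule epithelium also makes, by 1.72, Itgax by 1.36, Clec10a by 0.96 and Naaa by 0.92, with a list median of 0.17. Their sum, 13.61 to 13.70 in Kif3aΔTub kidneys and 12.03 to 12.06 in WT kidneys, was mostly Cd24a, which alone averaged 13.56 in Kif3aΔTub kidneys and 11.84 in WT kidneys. Of 7 costimulatory genes of antigen-presenting cells, 3 rose, Cd83 by 1.58, Cd86 by 1.43 and Icosl by 0.75, and Pdcd1lg2 fell by 0.37.

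Of 10 B cell markers in kidney, 1 was called higher, Cd79b by 1.28, and 4 lower, among them Ms4a1 (-0.44), Cd79a (-0.41) and Fcmr (-0.41). Group means of Ms4a1, Cd79a and Fcmr were 4.21 to 4.90, within the range of muscle markers in kidney (3.29 to 5.53). The sum of the 10 B cell markers was higher in each Kif3aΔTub array than in any WT array. It was 8.52 to 8.98 in Kif3aΔTub kidneys and 7.98 to 8.23 in WT kidneys under PBS. A sum weighs bright markers most, and the median change of the B cell list was -0.16, against -0.08 over all genes. The higher sum therefore does not stand for a rise across the list, and markers near the floor limit what that median can show. Of 11 T cell markers, 2 were higher (Ccl5 by 0.67 and Cd3g by 0.40) and 2 lower (Cd8a by -0.66 and Cd247 by -0.30), with sums of 8.43 to 8.73 in Kif3aΔTub kidneys and 8.53 to 8.70 in WT kidneys. At or below the median of muscle markers in kidney were Timd4 of the macrophage list, Ccr7 and Xcr1 of the dendritic cell list, 5 of 10 B cell markers, Pax5 and Cr2 among them, and 4 of 11 T cell markers, Cd3g among them. The 3′ minus 5′ actin signal was 0.76 to 1.37 in Kif3aΔTub kidneys and 1.40 to 1.5 in WT kidneys, and all 6 genes were still called in kidney under PBS with it as a covariate. Kidney markers fell in 5 of 7 and rose in 2, with a sum of 14.48 to 15.08 in Kif3aΔTub kidneys and 15.39 to 15.46 in WT kidneys. The part of any of these cells in the class II result was not tested.

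With the trap in Kif3aΔTub kidneys, where the 6 genes gave no call and 2.4% of all genes were called, macrophage markers changed in both directions: Vsig4 rose by 2.60 and Timd4 by 0.51, and Cd163 fell by 0.86. Their sum was 13.83 to 14.39 under the trap and 13.79 to 14.30 under PBS. Of the dendritic cell markers 1 was called, Cd24a, which fell by 0.37.

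In muscle under PBS, 9.04% of all genes were called lower in Kif3aΔTub mice, and the marker counts were read against that share. Of 15 macrophage markers 3 were called lower, Adgre1 by -0.92, C1qa by -0.77 and Csf1r by -0.67, with a median of -0.27. Their sum was 10.72 to 12.17 in Kif3aΔTub muscle and 11.51 to 11.89 in WT muscle, which overlapped. Of 13 dendritic cell markers 1 was called lower, Naaa by -0.53, a share near that of all genes, with a list median of -0.08. Of 7 costimulatory genes 2 were called lower, Cd83 by -0.85 and Cd86 by -0.47, with a list median of -0.09. The median over all genes was -0.05. Of 10 B cell markers 1 was called lower, a share near that of all genes. It was the immunoglobulin heavy chain Ighm, at 6.03 in Kif3aΔTub muscle and 8.92 in WT muscle (-2.89 ± 0.35 SE, limma adjusted p = 6.98e-05). The B cell sum, in WT muscle mostly Ighm, was 7.79 to 8.29 in Kif3aΔTub muscle and 9.38 to 9.45 in WT muscle, while 7 of the 10 markers, Ms4a1 and Pax5 among them, lay at or below the median of kidney markers in muscle. For dendritic cells 4 of 13 markers lay there (Ccr7, Cd209a, Irf4 and Xcr1) and for macrophages 2 of 15 (Itgam and Timd4). The dendritic cell sum was 11.67 to 12.28 in Kif3aΔTub muscle and 12.24 to 12.32 in WT muscle, and the T cell sum was 8.58 to 8.88 in Kif3aΔTub muscle and 8.74 to 8.92 in WT muscle, with 0 of 11 T cell markers called by limma and 4 of them at or below that median. Their part in the lower class II signal was not tested.

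With the trap in Kif3aΔTub muscle, where 4.18% of all genes were called higher, 4 of 15 macrophage markers were: Vsig4 by 2.39, Timd4 by 0.87, Adgre1 by 0.76 and C1qa by 0.74, with a median of 0.66. Their sum was 11.71 to 12.17 under the trap and 10.72 to 12.17 under PBS. In WT muscle, where the trap gave no call among the 6 genes, Vsig4 rose by 2.70 and the macrophage median was 0.75. The macrophage sum in WT muscle was 12.10 to 12.71 under the trap and 11.51 to 11.89 under PBS, without overlap. In Kif3aΔTub muscle Ighm rose by 1.31, with a B cell sum of 8.38 to 9.34 under the trap and 7.79 to 8.29 under PBS. Their part in the change of H2-Aa and H2-Ab1 was not tested.

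**Figure D5:**
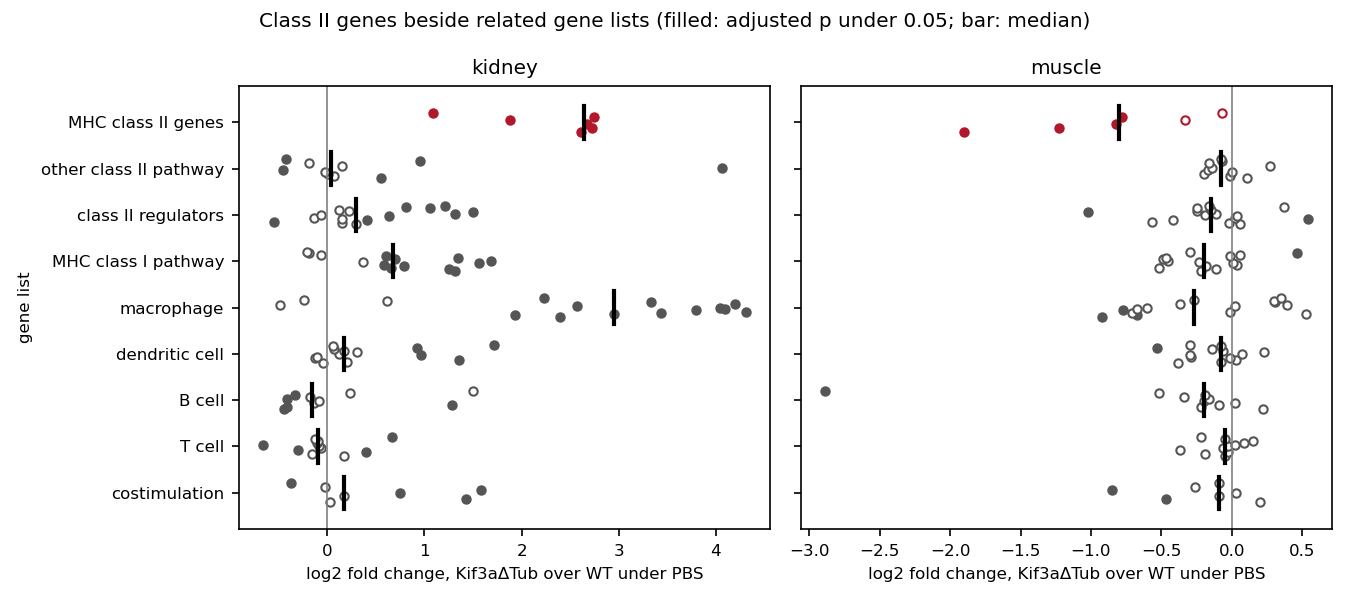
Log2 fold change of Kif3aΔTub over WT mice under PBS for the 6 MHC class II genes (red) and for the genes of 8 related lists (grey), in kidney and in muscle, with the list's median as a bar and filled points for a limma adjusted p under 0.05. In kidney the class II genes (median 2.64) and the macrophage markers (median 2.95) lie farthest right, while in muscle the class II genes (median -0.80) lie left of the medians of all 8 lists and Ighm stands alone at -2.89.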

How the data were processed

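Per the labels' protocols, biotin-labelled total RNA from frozen kidney and muscle (QIAZOL extraction) was read on Affymetrix Mouse Genome 430 2.0 arrays. The deposited table holds 35088 probe sets by 30 arrays as normalized signals that the authors left on a log2 scale. That base follows from the range of the values, and for the summary and normalization method the labels and headers name none. Medians of the arrays were 6.09 to 6.24 in kidney and 5.94 to 6.06 in muscle, and in kidney the Kif3aΔTub medians lay 0.10 above WT under PBS and 0.12 under the trap. Centring each array takes that shift out of each kidney difference. Probe sets with several symbols (825) or none (2700) were left out, and symbols were matched to RefSeq, where 102 found no match.

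In each tissue, group means were fitted over the 15 arrays with limma 3.58.1 in R 4.3.3 (lmFit, eBayes), on the brightest probe set of each of 17782 genes, with Benjamini-Hochberg adjustment over all genes. A model over both tissues took for each gene the probe set brightest over all 30 arrays and had the animal as a random block, read from the number shared by titles of kidney and muscle arrays (consensus correlation 0.0749). Its fits without each animal kept that correlation and took the probe set brightest over the arrays left. Labels number the mice within groups. Arrays of the same number in different groups deviated together at -0.24 to 0.34, not over 0.1 in every pair, so the numbers were taken as names only. Nothing in the labels gives a batch, and precision is limited by how few arrays each group has. On simulated data for Kif3aΔTub against WT under PBS over 17782 genes, 96% of log2 changes of 1 were recovered in kidney and 85% in muscle, and of changes of 2, 98% in kidney and 100% in muscle. There, 100 genes were changed at each size, with 8 false calls in kidney and 14 in muscle. In the real kidney comparison 51.6% of genes were called, so these rates check the fit and do not give its power in these data.

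The genes and lists were chosen with earlier results of these data known. Beside the 6 genes the text names Kif3a, up to 4 called genes of each list with the largest change in the comparison of genotypes under PBS and of trap with PBS in Kif3aΔTub mice, and the 5 genes of each tissue with the highest within-group Pearson r among those above the median level. H2-Oa, H2-Ob, Ifng and the muscle value of Ctss were named after their values were seen. Alternatives changed the probe set rule, the filter, the normalization, array weights, the prior variance, the replicate block, 2 RNA quality covariates, the groups fitted and each array in turn. Promoter windows of 3 of the 6 genes were in the RefSeq table; those of H2-Ab1, Cd74 and Ciita were not used here.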

Additional observations from a re-analysis of the deposited data

Results flagged for a closer look

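Among 36 sets of 4 arrays (the 6 genes in 6 groups), 2 held an array far from the other 3, where chance alone flags about 1 set in 20. In H2-Ab1 the gap between the second trap-treated Kif3aΔTub muscle, at 8.17, and the next array was 0.84 of the group's range. In Ciita the gap below the first PBS-treated Kif3aΔTub muscle, at 4.30, was 0.864 of the range, and that array lay near the floor of the measurement. Both exceed Dixon's limit for 4 arrays.

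The genotype difference under PBS differed between kidney and muscle by a direct test in all 6 genes. Kidney minus muscle, it was 4.50 log2 units for H2-Aa, 3.95 for H2-Ab1, 3.49 for H2-Eb1, 2.21 for H2-DMa, 3.53 for Cd74 and 1.37 for Ciita. These are differences of signed changes: all 6 genes were higher in Kif3aΔTub kidneys, and the 4 called in muscle were lower there. The change with the trap in Kif3aΔTub mice differed between the tissues for H2-Aa, by -1.59 for kidney minus muscle.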

How the results depend on the processing

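Of 2138 values of single genes under alternative settings, 2044 kept their direction and their side of the threshold, 52 lost the call, 7 gained it, 0 calls reversed, and 35 changed sign where neither value was called. In kidney the count of the 6 genes called between genotypes stayed at 5 or 6 under every alternative, under PBS, under the trap and for trap-treated mutants against PBS-treated WT mice, and the counts for the trap and the interaction stayed at 0. The muscle counts moved. Kif3aΔTub against WT under PBS gave 4, but 1 with the actin or the 18S signal as a covariate, 3 with a replicate block, and 2 to 4 with an array left out. Under the trap it gave 0, but 1 with array weights and 0 to 3 with an array left out. Trap against PBS in Kif3aΔTub muscle gave 2, but 1 with the mean of all probe sets, quantile normalization, median centring, array weights or a replicate block, 0 with the actin or the 18S signal as a covariate or with only the groups compared in the fit, and 0 to 3 with an array left out. The trap's change in kidney minus muscle gave 1, but 0 with the 18S signal (H2-Aa at -1.99) and 0 to 3 with an animal left out. The genotype difference in kidney minus muscle gave 6, and 4 of the 4 genes that passed a filter at the median level. The cause of these moves was not tested. The replicate block changed no other count of the 6 genes by more than 1.5 times. H2-DMa in muscle and Ciita in both tissues read near the level of markers of the other tissue, so their changes there may be understated.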
